A study of Mus musculus with 2 samples.

Results

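Chemokines and their receptors in the dural meninges of young mice with and without interleukin-33 are described here by 44 genes, 27 for ligands and 17 for receptors, out of 19347 genes in the deposited table of annotated cells. The members were taken by name: 44 listed genes that cover the CC, CXC, XC and CX3C families and the atypical receptors but leave out Cxcl12 and its receptors. All 44 were in the table. In 41 of them at least 1 cell class held 50 UMIs (unique molecular identifiers, each standing for 1 captured RNA molecule) over both libraries, and the 3 others, Ccr3, Ccr8 and Ackr2, are given by their counts alone.

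The study used single-cell RNA sequencing (10x Genomics) of dural meninges, the outermost covering of the brain, from mice at postnatal day 14. Mice carried H2B-mCherry at the Il33 locus on 1 allele (heterozygous controls, the het library) or on both (interleukin-33-deficient mice, the KO library), so both groups carry the reporter and no library came from wild-type mice. For each genotype and sex, the meninges of 5 to 8 animals were pooled, digested with Liberase TM and DNase I at 37 degrees Celsius for 30 min, and sorted so that lymphocytes (CD45+ CD11b-), stroma (gp38+ CD31-) and total viable cells were loaded at 1:1:2. The comparison asks what loss of interleukin-33 signalling changes in this tissue. With 1 library per genotype there is no replicate and no test: every difference below is between these 2 libraries, its 95% interval covers counting error only, and genotype cannot be told apart from library, sort or pool.

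Chemokines are small secreted proteins that bind receptors coupled to inhibitory G proteins and steer where leukocytes move. The CXC ligands Cxcl1 and Cxcl2 act on neutrophils through Cxcr2, Cxcl9 and Cxcl10 act on activated T and NK cells through Cxcr3, and Ccl2, Ccl7 and Ccl12 act on monocytes through Ccr2. Others, such as Ccl19, Cxcl13 and Ccl25, guide lymphocytes through Ccr7, Cxcr5 and Ccr9, and atypical receptors bind chemokines without this signal. In barrier tissues, resident macrophages, dendritic cells and fibroblasts are known sources of chemokines.

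The het library held 5950 annotated cells and the KO library 6594, with a median of 12746.5 and 12203.5 UMIs per cell, and 14 cell barcodes were shared between the annotated cells of both. Cells were taken in 25 classes: 21 of the 22 deposited clusters, and 4 groups of the authors' annotation of the remaining cluster, ILC2s, NK, Tcells and gdTcells. Clusters are called by a name ending in "-like" only where marker genes fitted, and 5 remained unnamed. No member was among the markers that named them, but the authors' clustering used all genes: Pf4 and Ccl12 were among the 10 leading genes of macrophage-like cluster 3 and Ccl17 among those of cluster 11, so a member's level across classes is a description. Il33 itself was at 43.5 CPM (counts per 1000000 UMIs of the class) over all annotated cells of the het library and 9.68 CPM in the KO library. Female and male mice were pooled separately, and each library held cells labelled female or male. For 12544 of 12544 cells this label equals whether Xist had a UMI, and a female cell of low depth could therefore be labelled male. The labels thus need not separate the pools.

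Member genes lie in several blocks of the mouse genome (GRCm38, GENCODE M21). The CXC ligands Pf4, Cxcl1 and Cxcl2 fill chr5:90772435-90905938, and Cxcl9 and Cxcl10 lie at chr5:92321347-92348889. Ccl2, Ccl7, Ccl11, Ccl12 and Ccl8 share chr11:82035571-82116799, and Ccl5, Ccl9, Ccl6, Ccl3 and Ccl4 share chr11:83525778-83664683. Ccl22, Cx3cl1 and Ccl17 share chr8:94745590-94812036. Of the receptors, Ccr9, Cxcr6, Xcr1, Ccr1, Ccr3 and Ccr2 share chr9:123678439-124113557.

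Over the 25 classes, 303 of 1100 pairs of a member and a class had 50 UMIs. Of these, 94 (31.0%) were at least 1.5-fold lower in the KO library and 47 (15.5%) at least 1.5-fold higher. Over all 183279 pairs of any gene and a class with 50 UMIs, 4.72% were lower and 3.97% higher by that fold. Ligands gave 83 of 234 pairs lower and 34 higher, with a median log2 KO/het ratio of -0.27. Receptors gave 11 of 69 lower and 13 higher, with a median of 0.07. The pairs are not separate observations, since RNA of 1 gene can be counted in several classes. B cell-like clusters 6 and 10 had 7 of 15 and 6 of 9 members lower and 0 higher (2.27% and 7.4% of all genes lower). The median log2 ratio of members in cluster 10 was -3.03. B cell-like cluster 1 had 0 of 6 lower and 3 higher (3.43% of all genes higher). The part of RNA from other cells was not tested. A ratio is named below only where the pair also had a UMI in at least 5% of the cells of 1 library, which left 262 pairs: 78 lower and 36 higher. Pairs under this limit are given by their CPM. In 59 of the 78 and 30 of the 36, female-label and male-label cells both lay on the same side of 1. No share over all genes was computed for the named pairs or for these label counts. The label counts are parts of the sums that gave the call, so agreement between them is partly built in. Where a pair of label ratios is given, the female-label ratio comes first.

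**Figure D1:**
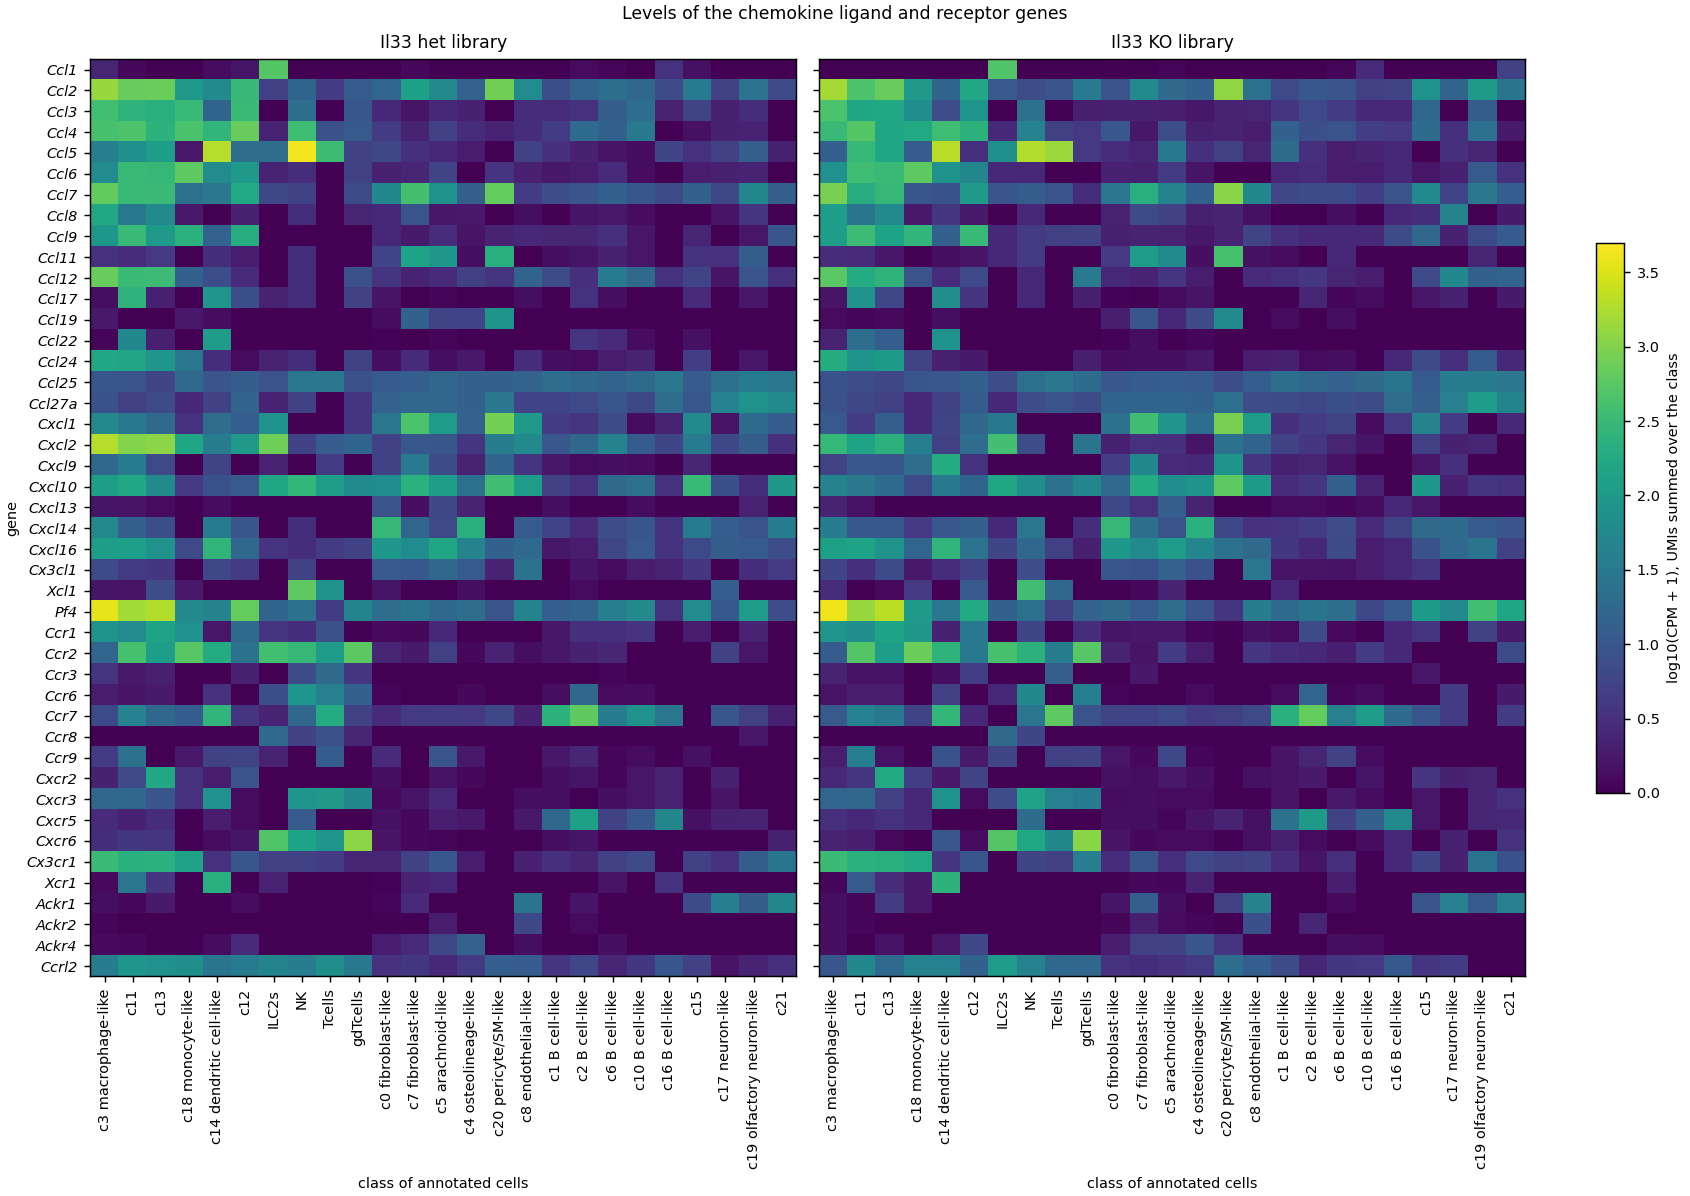
Level of each of the 44 genes (rows) in each of the 25 classes (columns), as log10(CPM + 1), in the het library (left) and the KO library (right). Most ligands of the CC family were concentrated in the myeloid classes at the left of each panel, Ccl1 in ILC2s, and Cxcl14 in fibroblast-like cluster 0 and osteolineage-like cluster 4.

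**Figure D2:**
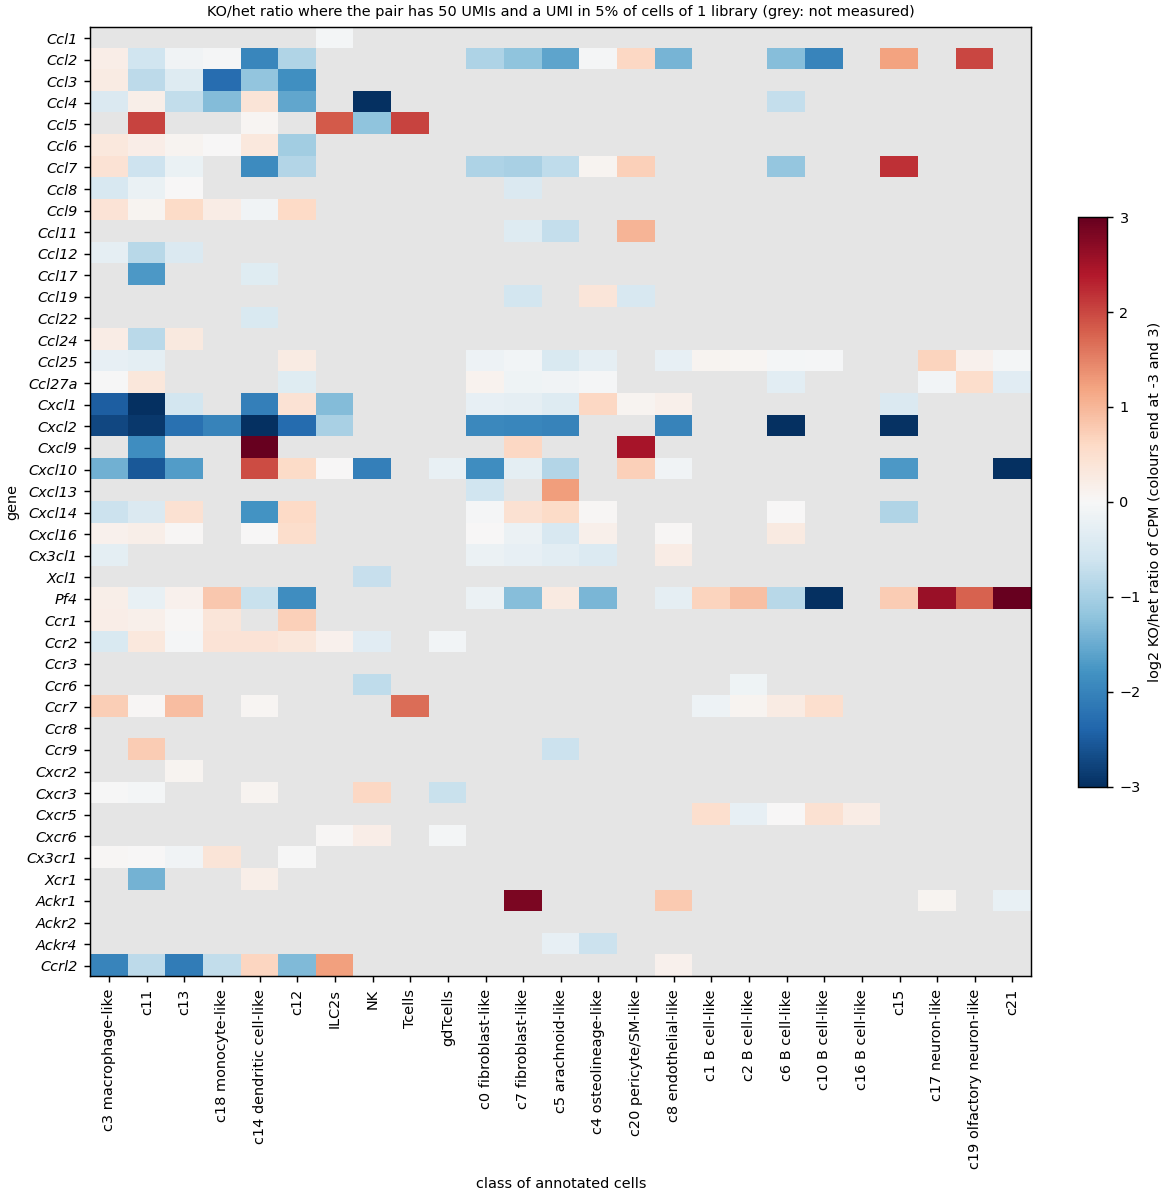
The log2 KO/het ratio of each pair of gene and class with 50 UMIs and a UMI in 5% of cells of 1 library; blue is lower and red higher in the KO library, and grey marks pairs not measured. The row of Cxcl2 is blue in every measured class, and the column of cluster 20 is red for Ccl2, Ccl7, Ccl11, Cxcl9 and Cxcl10.

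Of the CXC ligands that act on neutrophils, Cxcl2 was lower in the KO library by 1.5-fold or more in 14 of 14 classes with 50 UMIs; of all genes in those classes 4.45% were. These classes were myeloid, lymphoid, fibroblast-like, barrier-like, endothelial-like and, in cluster 15, glial by their genes. The part of RNA from other cells was not tested in any of them, so the classes are not separate observations. Within female-label cells it was lower in 9 of 10 classes with 50 UMIs, and within male-label cells in 8 of 8; the exception was ILC2s, with ratios of 0.860 and 0.297 in the labels. In macrophage-like cluster 3, where 4.13% of all genes were lower by that fold, Cxcl2 was at 1939 CPM in the het library (15023 UMIs, 446 cells) and 294 CPM in the KO library (2141 UMIs, 440 cells), a ratio of 0.151 (0.145 to 0.159). The ratio was 0.167 in female-label and 0.135 in male-label cells, so both labels were low in the KO library. In cluster 11 (led by Cd209a and Ccl17; 6.68% of genes lower) Cxcl2 was at 1037 and 139 CPM, and in cluster 13 (led by neutrophil granule genes; 3.8% of genes lower) at 1139 and 240.1 CPM. Sex-label ratios were 0.179 and 0.081 in cluster 11, and 0.207 in both labels in cluster 13. ILC2s, the group 2 innate lymphoid cells, were at 758 and 386 CPM, which made them the class with the highest Cxcl2 level in the KO library, while cluster 3 led in the het library.

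Fewer cells held Cxcl2, and cells that did held fewer UMIs. In cluster 3, 309 of 446 het cells (69.3%) and 131 of 440 KO cells (29.8%) had a Cxcl2 UMI, with a median of 31 and 7 UMIs among them. After thinning each cell to 1000 UMIs the expected shares were 49.6% and 11.96%. At least 10 UMIs were found in 234 het and 57 KO cells. In B cell-like cluster 6, which stands for a class without known Cxcl2 production, 7.84% and 1.83% of cells had a UMI, where the median cell had 19690 (het) and 19368 (KO) UMIs; the median cell of cluster 3 had 13928 and 13590. In cluster 11, 61.7% of het and 24.6% of KO cells had a UMI, and in cluster 13, 69.5% and 51.7%.

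**Figure D3:**
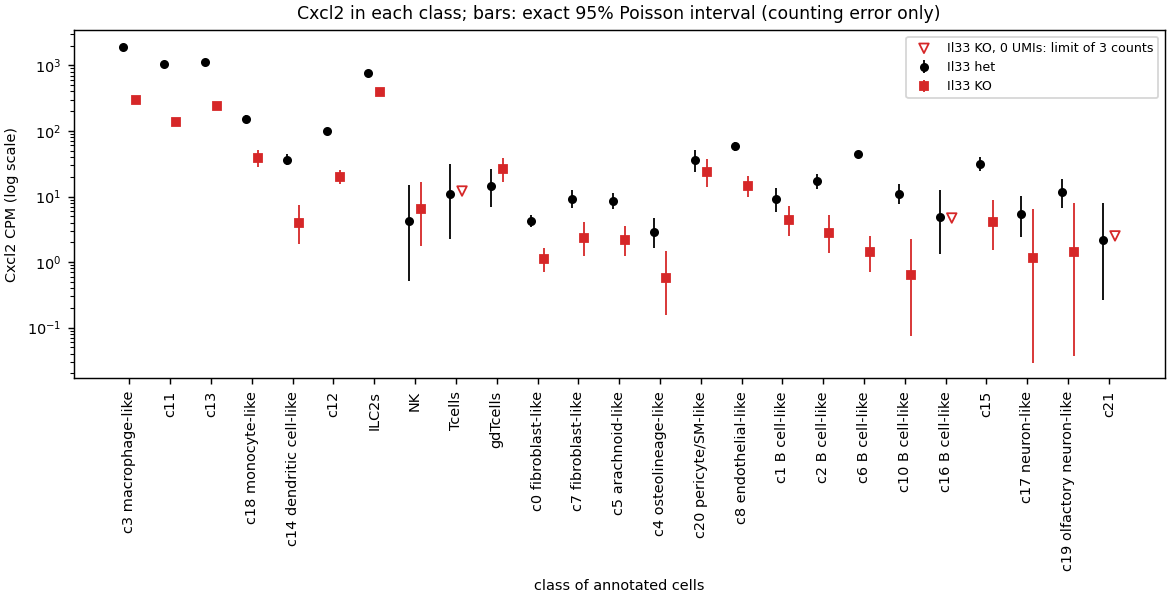
Cxcl2 CPM (log scale) in each class in the het (circles) and KO (squares) library with exact 95% Poisson intervals; triangles mark the limit that 0 UMIs allows. The 3 highest het values are those of clusters 3, 13 and 11, and the KO squares lie below the het circles except in NK and gdTcells, which held under 50 UMIs.

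**Figure D4:**
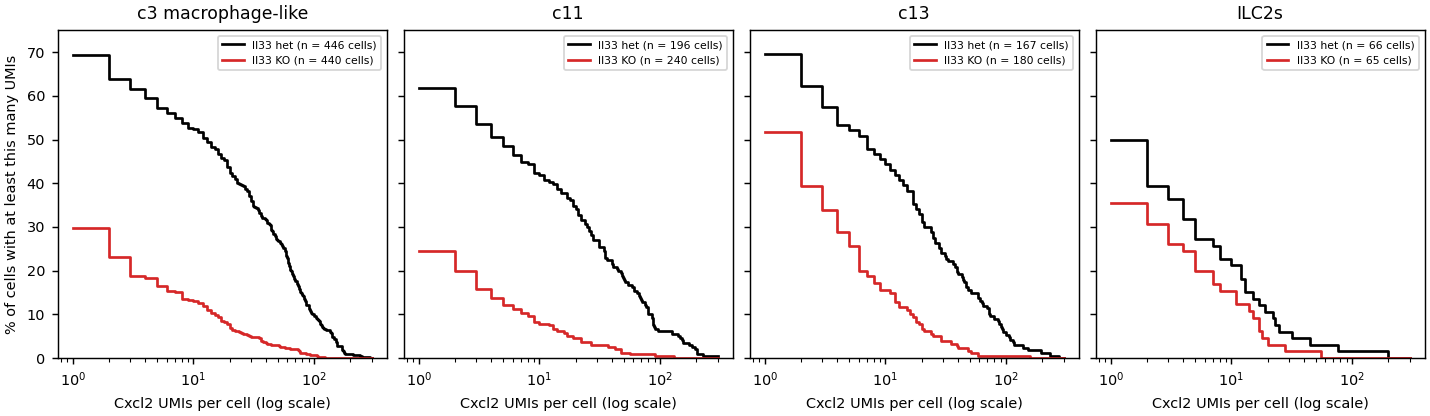
Share of cells (%) with at least a given number of Cxcl2 UMIs (x axis, log scale) in clusters 3, 11 and 13 and ILC2s; black is het and red KO. In the 3 clusters the KO curve lies below the het curve from the first UMI on, and in ILC2s 33 of 66 het and 23 of 65 KO cells had a UMI.

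Outside these classes Cxcl2 levels were lower, and barcodes outside the annotation showed the same difference. Those barcodes, with a median depth of 2343 UMIs (het) and 2562.5 UMIs (KO), held 224 and 33.6 Cxcl2 CPM. The number of Cxcl2 UMIs per UMI of Pf4, a gene of macrophages, was 0.538 in het and 0.072 in KO cells of cluster 3. Summed over all B cell-like clusters it was 0.863 and 0.112. In ILC2s, which held few Pf4 UMIs, it was 51.8 and 29.9. What these values mean for RNA from other cells was not tested. Among the other named classes the ratio ran from 0.0318 in cluster 6, where 160 of 329 het UMIs lay in 1 cell, to 0.260 in cluster 0. In cluster 18, at 154 and 38.6 CPM, 39 of the 49 KO UMIs lay in 1 cell, and the ratio of 0.250 became 0.0692 without the top cells. Cluster 6 came to 0.499 with equal weight per cell, and both remained below 1. In fibroblast-like cluster 0 (4.29 and 1.12 CPM), arachnoid barrier-like cluster 5 (8.66 and 2.15 CPM) and fibroblast-like cluster 7 (9.22 and 2.36 CPM) the part of RNA from other cells was not tested.

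Cluster 13 also expressed 10 of 10 macrophage markers 2-fold above the other clusters, so it was split at a macrophage-marker share of 0.1% of a cell's UMIs, a choice made after seeing the data. Among cells under this limit (65 het, 73 KO) Cxcl2 was at 365 and 90.9 CPM, a ratio of 0.249. Among those at or over it (102 het, 107 KO) it was at 1459 and 296 CPM, a ratio of 0.203. In both portions the KO library was low; 14 het and 24 KO cells lay near the limit.

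Cxcl1, the neighbour of Cxcl2 and also a Cxcr2 ligand, was low in the KO library only in some of its classes. In cluster 3 it was at 53.9 and 9.74 CPM, a ratio of 0.181 (0.138 to 0.233), and in cluster 11 at 30.4 and 3.56 CPM, a ratio of 0.117. Its highest levels were stromal: 835 and 882 CPM in pericyte or smooth muscle-like cluster 20, 441 and 367 CPM in fibroblast-like cluster 7. There the libraries differed by less than 1.5-fold, although the labels of cluster 20 lay apart (1.63 and 0.648). In osteolineage-like cluster 4 (2% of genes higher) it was at 13.5 and 20.9 CPM, a ratio of 1.55, which was 1.41 in male-label cells. In ILC2s, 54 of its 57 het UMIs lay in 1 cell.

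The receptor Cxcr2 was found almost only in cluster 13, which held 86.5% of its het UMIs and 89.0% of its KO UMIs. It was at 163 CPM in the het and 173 CPM in the KO library, a ratio of 1.07 (0.954 to 1.19). The receptor differed by less than 1.5-fold in the class in which its ligand Cxcl2 was 4.74-fold lower.

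Promoter sequences of some CXC ligands of chromosome 5 are shown because Cxcl1, Cxcl2, Cxcl9 and Cxcl10 were all lower in the KO library by 1.5-fold in clusters 3 and 11, and Pf4, in the same block as Cxcl1 and Cxcl2, was not. The Cxcl9 difference in cluster 11 was not on the same side in both labels, and in cluster 3 Cxcl9 stood at 16.3 and 4.66 CPM with a UMI in under 5% of cells. They are RefSeq sequences (GRCm38.p6), from 220 to 36 bases before the annotated start, 5′ to 3′ on the gene's strand. Capitals mark matches to an NF-kB motif, GGGNNNTTCC, or an interferon response motif, GAAANNGAAA, on either strand. 
Cxcl1, chr5:90891025-90891209, plus strand: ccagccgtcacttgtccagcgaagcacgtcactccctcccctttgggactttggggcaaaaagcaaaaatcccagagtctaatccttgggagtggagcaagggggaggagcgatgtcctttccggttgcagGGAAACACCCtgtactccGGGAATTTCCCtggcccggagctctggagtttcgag
Cxcl2, chr5:90903679-90903863, plus strand: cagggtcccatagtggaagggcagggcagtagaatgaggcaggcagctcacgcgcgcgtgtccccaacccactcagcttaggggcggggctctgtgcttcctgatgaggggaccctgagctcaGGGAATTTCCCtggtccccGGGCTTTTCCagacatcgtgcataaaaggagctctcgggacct
Cxcl9, chr5:92328115-92328299, minus strand: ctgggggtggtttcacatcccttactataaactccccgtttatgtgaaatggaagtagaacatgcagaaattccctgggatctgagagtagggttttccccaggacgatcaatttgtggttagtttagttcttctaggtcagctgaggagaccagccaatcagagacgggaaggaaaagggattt
Cxcl10, chr5:92348925-92349109, minus strand: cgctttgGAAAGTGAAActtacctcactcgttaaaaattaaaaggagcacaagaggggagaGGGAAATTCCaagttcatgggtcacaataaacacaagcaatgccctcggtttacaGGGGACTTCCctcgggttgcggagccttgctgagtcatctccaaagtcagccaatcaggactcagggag
Pf4, chr5:90772215-90772399, plus strand: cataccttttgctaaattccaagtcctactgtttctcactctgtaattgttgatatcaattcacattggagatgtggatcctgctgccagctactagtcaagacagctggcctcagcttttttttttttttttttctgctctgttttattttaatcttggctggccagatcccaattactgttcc

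Windows of 300 bases were found for 35 of the 44 members. An NF-kB match lay in those of 7 members: Cxcl1, Cxcl2, Cxcl10, Ccl1, Ccl9, Ccr3 and Ccr6. Of all 32851 windows, 5.56% held one. An interferon response match lay in those of Cxcl10, Ccl19 and Cxcl14, and in 3.44% of all windows. The windows of Cxcl9 and Pf4 held neither, so genes low in clusters 3 and 11 were found with and without a match. Cxcl13, a CXC ligand of chromosome 5 that is not printed, also held neither in its window. In Cxcl1 and Cxcl2 the run of 11 bases in capitals matched on both strands, so its overlapping matches are 1 run. A match is a string of letters and shows no binding.

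The CXC ligands of Cxcr3 moved both ways. Cxcl10, induced by interferons, was lower by 1.5-fold or more in 9 of 18 classes with 50 UMIs and higher in 3, beside 4.5% and 3.79% of all genes there. In fibroblast-like cluster 0 (2.43% of genes lower) it was at 62.5 CPM in the het and 17.2 CPM in the KO library, a ratio of 0.275 (0.245 to 0.310), with 0.351 in female-label and 0.229 in male-label cells. In cluster 11 it was at 165 and 28.3 CPM, and in cluster 13 at 58.7 and 18.5 CPM, where the ratio of 0.315 became 0.149 without the top cells. Both labels were low in the KO library in each of these 3 classes. In cluster 3 it was at 119 and 43.5 CPM, with a ratio of 0.671 in male-label cells.

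Some Cxcl10 differences rested on single cells. In NK cells Cxcl10 was at 284 and 68.2 CPM, and 88 of the 136 het UMIs lay in 1 cell. With the top cell of either library left out, the ratio of 0.240 became 0.459. In cluster 15, which has Schwann cell and oligodendrocyte genes (8.8% of genes lower), 450 of 646 het UMIs lay in 1 cell, and the ratio of 0.304 became 0.677. In cluster 20 Cxcl10 was higher in the KO library, at 368 and 609 CPM, with a ratio of 1.94 in female-label and 1.39 in male-label cells. In dendritic cell-like cluster 14 (3.58% of genes higher) it was at 7.69 and 29.8 CPM, from 23 and 75 UMIs, and its ratio of 3.88 ran from 1.12 in male-label cells to 29.6 without the cells of highest doublet score.

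Cxcl9, induced by interferon-gamma, was at 33.5 CPM in the het and 9.25 CPM in the KO library in cluster 11, yet higher in the male-label cells of the KO library by a ratio of 1.86. In cluster 7 (4.69% of genes higher) it was at 32.4 and 49.8 CPM, with a ratio of 0.939 in female-label cells. In cluster 20 it was at 14.5 and 80.2 CPM, from 11 and 61 UMIs. In cluster 14 it was at 4.68 and 195 CPM, where 388 of 491 KO UMIs lay in 1 cell. With the top cells left out, the ratio of 41.8 in cluster 14 became 10.2. High and low classes thus stood side by side for Cxcl9, on few cells each.

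Their receptor Cxcr3 was at 87.8 and 135 CPM in NK cells, from 42 and 83 UMIs, a ratio of 1.53. In cluster 14 it was at 74.2 and 78.4 CPM, and in gdTcells, the authors' gamma-delta T cells (3.65% of genes lower), at 50.8 and 32.1 CPM, from 35 and 31 UMIs. The interval of the last ratio, 0.376 to 1.05, included 1.

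The monocyte-attracting CC ligands were lower in the KO library in several classes and higher in cluster 20. Ccl2 was lower by 1.5-fold in 9 of 17 classes with 50 UMIs and higher in 3, beside 4.57% and 3.75% of all genes there. In its main source, cluster 3, which held 51.7% of its het UMIs, it was at 1362 CPM in the het and 1577 CPM in the KO library, a ratio of 1.16. In cluster 11 it was at 694 and 455 CPM, and both labels were low in the KO library (0.665 and 0.687). In fibroblast-like cluster 7 (2.03% of genes lower) it was at 128 and 55.3 CPM and in arachnoid barrier-like cluster 5 (3.16% of genes lower) at 55.0 and 18.3 CPM. The fibroblast-like ratio was 0.696 in female-label cells and 0.334 in male-label cells, and in cluster 5 the label ratios were 0.727 and 0.156.

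Ccl7, the gene next to Ccl2 and also a Ccr2 ligand, was lower by 1.5-fold in 8 of 14 classes with 50 UMIs and higher in 3, beside 4.41% and 3.93% of all genes there. It was at 401 and 205 CPM in cluster 7, at 74.8 and 43.9 CPM in cluster 5, and at 51.2 and 27.2 CPM in cluster 0. In cluster 0 the ratio was 0.338 in male-label cells and 1.22 in female-label cells, which lay on opposite sides of 1. In cluster 3 Ccl7 was at 650.1 CPM in the het and 880 CPM in the KO library, a ratio of 1.35. The genes went opposite ways in clusters 8 and 19. In cluster 8 Ccl2 was at 59.4 and 22.5 CPM, with 122 of 154 het UMIs in 1 cell, and Ccl7 at 3.47 and 50.6 CPM, with 106 of 108 KO UMIs in 1 cell. Leaving out the top cells brought the Ccl7 ratio there to 0.350. In cluster 19 Ccl2 was at 25.1 and 101 CPM, from 37 and 70 UMIs, and Ccl7 at 49.5 and 28.8 CPM, with 53 of 73 het UMIs in 1 cell.

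In pericyte or smooth muscle-like cluster 20, which expressed 8 of 8 of its markers, 5 of 7 members with 50 UMIs were at least 1.5-fold higher in the KO library and none lower; of all genes 4.67% were higher by that fold. Ccl2 was at 793 CPM in 61 het cells and 1229 CPM in 56 KO cells. Ccl7 was at 678 and 1114 CPM, and the eosinophil-attracting ligand Ccl11 at 207 and 418 CPM. All 3 had a ratio above 1 in both labels, but in female-label cells the ratios were 1.27, 1.17 and 1.16, under 1.5. Summed fibroblast markers in this cluster stood at 11141 and 14195 CPM, and their part in the result was not tested. Without the cells of highest doublet score, 1 member remained 1.5-fold higher.

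**Figure D5:**
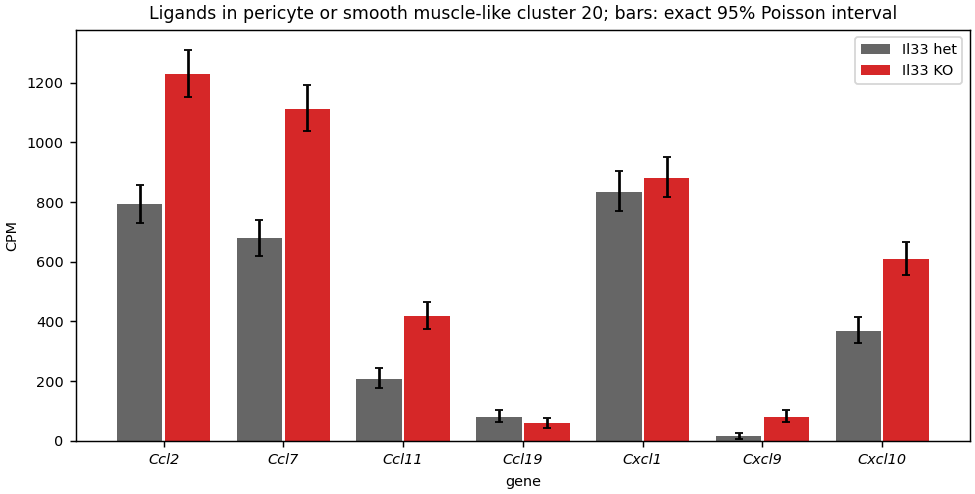
CPM of the 7 ligands with 50 UMIs in cluster 20 in the het (grey) and KO (red) library, with exact 95% Poisson intervals. The KO bars of Ccl2, Ccl7, Ccl11, Cxcl9 and Cxcl10 stand above the het bars, and Ccl19 and Cxcl1 differed by less than 1.5-fold.

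Ccl12, another Ccr2 ligand, was lower by 1.5-fold in 4 of 6 classes with 50 UMIs, beside 4.25% of all genes there, and its ratio was below 1 in 6 of 6. The 4 classes were fibroblast-like cluster 0, B cell-like clusters 6 and 10, and cluster 11. The part of RNA from other cells was not tested in them. Ccl12 was at 693 and 571 CPM in cluster 3, which held 61.0% of its het UMIs. It was at 346 and 258 CPM in cluster 13 and at 331 and 186 CPM in cluster 11. The cluster 11 ratio was 0.561 (0.519 to 0.607), with 0.605 and 0.595 in female-label and male-label cells. In clusters 3 and 13 male-label cells had ratios of 1.05 and 1.38. Ccl8, a further ligand of this block, was at 159 and 115 CPM in cluster 3, with 263 of its 1232 het UMIs in 1 cell.

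Ccl11 and Ccl24 are ligands of the eosinophil receptor Ccr3. Ccl11 was at 139 and 107 CPM in cluster 7 and at 93.4 and 56.8 CPM in cluster 5, where female-label cells had a ratio of 1.05. Ccl24 was at 166 and 194 CPM in cluster 3 and at 144 and 81.8 CPM in cluster 11. The cluster 11 ratio was 0.377 in female-label cells and 1.92 in male-label cells. Ccr3 had 44 het and 37 KO UMIs in all annotated cells, too few for a ratio in any class.

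The receptor Ccr2 was close in both libraries. In gdTcells it was at 578 and 549 CPM, in ILC2s at 383 and 419.8 CPM, and in NK cells at 295 and 234 CPM. In monocyte-like cluster 18 it was at 554 and 732 CPM and in cluster 11 at 415 and 520.0 CPM. Over the classes in which a ratio was named it ran from 0.727 in cluster 3 to 1.34 in cluster 14, within 1.5-fold in each.

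The inflammatory ligands Ccl3, Ccl4 and Ccl5 had their lowest ratios outside the macrophage-like cluster. Ccl3, a ligand of Ccr1, was at 383 CPM in the het and 454 CPM in the KO library in cluster 3. In cluster 12, which has mast cell and granulocyte progenitor genes (5.12% of genes lower), it was at 312 and 87.9 CPM, with ratios of 0.239 and 0.339 in the labels. Summed mast cell or basophil markers of cluster 12 stood at 15294 and 7940.3 CPM, and their part was not tested. In cluster 11 it was at 257 and 149 CPM, with label ratios of 0.590 and 0.551.

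In monocyte-like cluster 18 (7.98% of genes lower) Ccl3 was at 310.3 and 63.8 CPM and Ccl4 at 438 and 177 CPM. For Ccl3, 224 of 392 het UMIs lay in 1 cell, and for Ccl4, 288 of 553. Without the top cells the ratios were 0.331 and 0.610, and male-label cells gave 1.01 and 8.92. Summed neutrophil markers of the cluster stood at 3434 CPM in the het and 15182 CPM in the KO library, and their part was not tested.

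NK cells, the natural killer cells of the authors' annotation, had 5 members lower and 1 higher among 8 with 50 UMIs, beside 5.1% and 8.41% of all genes. Ccl4 was at 359.7 CPM in 52 het cells and 42.2 CPM in 54 KO cells, a ratio of 0.117 (0.0745 to 0.178), with 0.142 in female-label and 0.0917 in male-label cells. Ccl5 was at 4354 and 1893 CPM, with a ratio of 0.347 in female-label but 1.02 in male-label cells. Xcl1, the ligand of Xcr1, was at 596 and 367 CPM, with label ratios of 0.533 and 0.612. Ccl4 and Xcl1 were thus low in both labels, and Ccl5 in 1. Summed NK cell markers of this class stood at 3706 and 2289 CPM, and their part was not tested.

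Ccl4 was also low in cluster 12, at 692 and 235 CPM, with label ratios of 0.541 and 0.201. In cluster 3 it was at 414 and 308 CPM, in cluster 11 at 467 and 523 CPM, and in cluster 14 at 272 and 355 CPM. Ccl5 in cluster 14 was at 1924 and 1997 CPM, with ratios of 0.454 in female-label and 1.90 in male-label cells. In Tcells (5.13% of genes higher; 30 het and 32 KO cells) Ccl5 was at 338 and 1369 CPM, where the median log2 ratio over all 1385 genes with 50 UMIs was -0.16; with equal weight per cell the ratio of 4.05 became 2.59. In cluster 11, 1378 of 1647 KO UMIs of Ccl5 lay in 1 cell, and its ratio of 4.08 became 1.01 without the top cells.

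Ccl6 and Ccl9, mouse CC ligands of myeloid cells, were close in both libraries where they were highest. Ccl6 was at 607 and 609 CPM in cluster 18, and at 307 and 351 CPM in cluster 11. Ccl9 was at 325 and 346 CPM in cluster 11 and at 230 and 269 CPM in cluster 18. Their receptor Ccr1 was at 137 and 141 CPM in cluster 13 and at 75.7 and 86.7 CPM in cluster 3. In cluster 12 Ccl6 was at 99.9 and 48.8 CPM and Ccl9 at 203 and 307 CPM (11.8% of genes higher), but female-label cells reversed the first (1.14), and equal weight per cell the second (0.711).

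Ccl17 and Ccl22, ligands of Ccr4 made by dendritic cells, were found in clusters 11 and 14. In cluster 11 Ccl22 was lower by 1.5-fold, at 52.5 and 20.5 CPM, with 190 of 269 het UMIs in 1 cell. In cluster 13 it was higher, at 1.14 and 11.6 CPM, with 36 of 47 KO UMIs in 1 cell. In both classes under 5% of cells held a UMI. Ccl22 was at 108 and 78.8 CPM in cluster 14, a ratio of 0.728 from summed counts and of 1.32 with equal weight per cell. Ccl17 in cluster 14 was at 84.9 and 65.7 CPM, with 184 of 254 het UMIs in 1 cell. The labels gave ratios of 0.173 and 3.69 for it there. In cluster 11 the labels gave 0.0959 and 13.4, so no direction for Ccl17 held over both labels.

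Ccl1, a ligand of Ccr8, was a gene of ILC2s: 94.9% of its 415 het UMIs and 95.7% of its 325 KO UMIs lay in these 66 and 65 cells. Its label ratios were 1.45 and 0.489, and 80 of the 311 KO UMIs lay in 1 cell. Ccr8 had 19 het and 14 KO UMIs in all annotated cells, of which 68.4% and 78.6% were in ILC2s. Ligand and receptor thus had the same top class in both libraries.

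The pair Cxcl16 and Cxcr6 differed little. Cxcl16, a membrane-bound ligand, was at 259 and 260.3 CPM in dendritic cell-like cluster 14, at 121 and 137 CPM in cluster 11, and at 153 and 110.0 CPM in cluster 5. Cxcr6, its receptor on tissue lymphocytes, was at 1134 and 1095 CPM in gdTcells, with a ratio of 0.966. In ILC2s it was at 503 and 512 CPM, and in NK cells at 138 and 157 CPM. In gdTcells and ILC2s both labels gave ratios between 0.906 and 1.04 for Cxcr6.

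Cx3cl1 and Cx3cr1 differed by less than 1.5-fold in the classes where they were highest. The ligand Cx3cl1 was highest in blood endothelial-like cluster 8, at 23.5 and 27.7 CPM. The receptor, a gene of macrophages and monocytes, was at 328 and 336 CPM in cluster 3, at 224 and 227 CPM in cluster 11, and at 135 and 176 CPM in cluster 18. It was lower in cluster 5, at 9.37 and 2.28 CPM, with 43 of 53 het UMIs in 1 cell, and leaving out the top cells brought this ratio to 1.06. It was higher in cluster 7, at 4.29 and 8.73 CPM, with 18 of 20 het and 27 of 48 KO UMIs in 1 cell each. In cluster 3 its label ratios were 1.04 and 1.00, in the same cells in which Cxcl2 was 6.60-fold lower. Pf4, also named Cxcl4, was at 3601 CPM in the het and 4076 CPM in the KO library in cluster 3, and at 1556 and 1328 CPM in cluster 11.

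Xcr1, the receptor of cross-presenting dendritic cells, was at 217 and 247 CPM in cluster 14, with 78.6% of its het and 87.6% of its KO UMIs there. In cluster 11 it was at 27.5 and 10.3 CPM, a ratio of 0.375 that was 1.00 in male-label cells. Its ligand Xcl1 was lower in NK cells of the KO library, as given above.

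Ccr7, which guides cells to lymph nodes, was higher in the KO library by 1.5-fold in 5 of 11 classes with 50 UMIs and lower in none, beside 2.58% of all genes higher there. Its level was highest in B cell-like cluster 2. It was at 628 and 668 CPM there, at 245 and 220.0 CPM in B cell-like cluster 1, and at 270.3 and 281 CPM in cluster 14. In Tcells it was at 187 and 602 CPM, from 52 and 149 UMIs, a ratio of 3.22 (2.33 to 4.50) with 2.15 and 5.22 in the labels. Its ligand Ccl19 was at 80.5 and 57.9 CPM in cluster 20, an interval of 0.476 to 1.08 for the ratio. The other classes with Ccr7 higher were clusters 0, 3, 5 and 13. In cluster 13 it was at 16.2 and 30.6 CPM, with label ratios of 1.03 and 9.82, and in cluster 3 at 5.81 and 9.74 CPM, with 1.74 and 1.73. Cluster 0, at 1.79 and 4.74 CPM, and cluster 5, at 3.54 and 5.64 CPM, held a UMI in under 5% of cells, and in cluster 5 the ratio was 0.710 without the top cells, where 1 cell held 28 of 42 KO UMIs. Without the cells of highest doublet score the cluster 3 ratio came to 0.977. In these 4 clusters the level of Ccr7 was thus below that in Tcells, and the ratio of the ligand Ccl19 in cluster 20 could not be told from 1 at this depth.

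Cxcr5, the B cell receptor for Cxcl13, was at 124 and 104 CPM in cluster 2. Cxcl13 was at 7.97 and 5.26 CPM in cluster 0 and at 5.13 and 12.2 CPM in cluster 5 (1.45% of genes higher), where 33 of 91 KO UMIs lay in 1 cell. Cxcl14, a CXC ligand of fibroblasts, was at 293 and 288 CPM in cluster 0 and at 220.1 and 226 CPM in cluster 4. Cluster 0 held 72.8% of its het and 72.4% of its KO UMIs. The 2 stromal classes thus gave the same Cxcl14 level within 1.5-fold.

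Ccl25 and Ccl27a were spread thinly. Ccl25 had 50 UMIs in 15 classes and was highest in cluster 19 of the het library (31.9 CPM) and cluster 17 of the KO library (35.8 CPM), with ratios from 0.726 in cluster 5 to 1.59 in neuron-like cluster 17. Ccl27a had 50 UMIs in 11 classes, with ratios from 0.774 to 1.45. Ccl27a was highest in olfactory neuron-like cluster 19, at 76.6 and 111 CPM, but near-identical copies of this gene in the mouse genome make its counts uncertain. Ccr9, the receptor of Ccl25, was at 22.4 and 38.1 CPM in cluster 11 (2.04% of genes higher), with 0.967 as its ratio in male-label cells. In cluster 5 (3.16% of genes lower) Ccr9 was lower, at 8.13 and 5.24 CPM. Its ratio there was 0.644 (0.409 to 1.01), with 0.317 and 1.26 in the labels. Ccr6 was at 85.7 and 50.3 CPM in NK cells, from 41 and 31 UMIs, 19 of the 41 in 1 cell. Its largest source was B cell-like cluster 2, at 16.3 and 15.0 CPM, from 54 and 53 UMIs, a ratio of 0.916. In gdTcells, with 46 UMIs over both libraries, Ccr6 was at 13.1 and 38.3 CPM, and in Tcells it had 11 and 0 UMIs.

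Among the atypical receptors, Ccrl2, which binds chemerin and does not carry chemokine signals, was lower by 1.5-fold in 5 of 9 classes with 50 UMIs (clusters 3, 11, 12, 13 and 18) and higher in 2, beside 5.04% and 3.66% of all genes there. In cluster 3 it was at 34.3 and 8.64 CPM, a ratio of 0.252 (0.188 to 0.332), with 0.265 and 0.235 in the labels. In cluster 13 it was at 74.3 and 17.3 CPM, with label ratios of 0.215 and 0.259. In cluster 11 it was at 90.3 and 52.6 CPM, with label ratios of 0.801 and 0.331, and in cluster 18 at 68.9 and 41.0 CPM. In dendritic cell-like cluster 14, where Cxcl2 was lower, Ccrl2 was higher, at 26.7 and 41.8 CPM, with label ratios of 1.17 and 2.11. ILC2s also went this way, at 45.2 and 107 CPM, with ratios of 3.27 and 1.55 in the labels, 1.56 with equal weight per cell, and 22 of 66 KO UMIs in 1 cell (3.75% of genes were higher in ILC2s). In clusters 3, 11, 12, 13 and 18 both label ratios lay below 1, and in cluster 14 and ILC2s both lay above 1.

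Ackr1, which binds many CC and CXC ligands on venules and erythroid cells, was highest in the het library in unnamed cluster 21, at 47.0 and 40.1 CPM, where 79.3% and 63.2% of cells held a UMI. In neuron-like cluster 17 it was at 38.5 and 40.5 CPM, with a UMI in 33.3% and 41.3% of cells. Both classes had ratios near 1, 0.854 and 1.05. It was at 25.5 and 43.6 CPM in blood endothelial-like cluster 8 (2.47% of genes higher), where 24 of 261 het and 19 of 226 KO cells held a UMI, 29 of 93 KO UMIs lay in 1 cell and the male-label ratio was 1.40. In fibroblast-like cluster 7 it was at 1.72 and 12.2 CPM, from 8 and 67 UMIs, a ratio of 7.10 (3.41 to 17.1) with 11.9 and 6.23 in the labels. It is the receptor with the highest named ratio, on few UMIs. Ackr4, which takes up Ccl19 and Ccl25, was at 13.5 and 8.69 CPM in cluster 4 (1.89% of genes lower). Ackr2 had 22 het and 36 KO UMIs in all annotated cells, 63.6% and 41.7% of them in cluster 8.

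The genes that carry the signal inside the cell were counted in the same way. Of 507 pairs of a class and 1 of 28 receptor signalling genes (inhibitory G proteins, arrestins, regulators of G protein signalling, kinases and small GTPases) with 50 UMIs, 16 were lower and 15 higher by 1.5-fold, which is 3.16% and 2.96%. In cluster 3, where 7 of 26 members with 50 UMIs were lower and 1 higher (4.13% and 1.56% of all genes), 0 of 28 signalling genes passed in either direction. Gnai2, the most common inhibitory G protein of leukocytes, was at 709 and 722 CPM there. In cluster 11, 13 of 29 members with 50 UMIs were lower and 2 higher (6.68% and 2.04% of all genes), and 0 of 27 signalling genes passed.

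Of 13 other chemokine genes looked up, 8 were in the table, and they gave 8 pairs with 50 UMIs. Ccl21a, a Ccr7 ligand of lymphatic vessels, had 54 het and 700 KO UMIs. It was higher in cluster 3, with 40 and 471 UMIs, 470 of the latter in 1 cell, and in cluster 8, with 5 and 225 UMIs, 167 of the latter in 1 cell. Near-identical copies make its counts uncertain. Ppbp, a platelet chemokine, had 704 het UMIs, 637 of them in 1 cell of cluster 12. That class also had its Pf4, at 663 and 182 CPM, mostly from 1 cell with 1966 of 2229 UMIs, and label ratios of 11.8 and 0.0315. In each of these classes 1 cell held most of the UMIs of the library with the higher level.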

How the data were processed

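Single-cell RNA libraries of 1 Il33 het and 1 Il33 KO sample were used. The authors deposited UMI counts per gene and cell, with clusters, genotype and sex label for each cell and a cell type for 477 cells; Cell Ranger 3.0.2 and mm10 are named in the submitters' processing notes. The deposited table also gives the percent of mitochondrial UMIs, which was not used. Read filters and the kit end (3′ or 5′) were not stated. Counts were summed per class and library and given as CPM, counts per 1000000 UMIs of that class; classes of at least 20 cells per library entered. Of 42024981 values above 0 compared, 1673 differed from the deposited matrices. Intervals are exact 95% Poisson intervals for CPM and conditional binomial intervals for KO/het ratios; PCR duplicates are removed by UMIs, so both cover counting error only. Pairs with under 50 UMIs over both libraries got no ratio, a difference was called at 1.5-fold, and a count of 0 allows up to 3 counts. A pair was named with a UMI in at least 5% of cells of 1 library. Scrublet (scanpy 1.11.5) marked 3 het and 1 KO cells, under 0.5%, so it has not worked and no doublet was removed; leaving out the cells with the 10% highest scores is an alternative. Cluster names came from fixed markers 2-fold above the other cells. The ratio and its interval were tested on simulated Poisson counts for genes of cluster 3. Those counts hold no clumping of UMIs in single cells, so the test cannot show how the interval performs where 1 cell holds many UMIs. Members and lists were chosen with earlier results of these data known. The alternatives tried are given with the closing observations.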

Additional observations from a re-analysis of the deposited data

Results flagged for a closer look

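Among pairs with a UMI in at least 5% of the cells of 1 library, some genes had ratios past 1.5-fold on both sides of 1. Each did so in different classes, and the difference was not tested in any of them. Ccr9 ran from 0.644 in cluster 5, with an interval of 0.409 to 1.01, to 1.70 in cluster 11. Cxcr3 was lower in gdTcells, with an interval that included 1, and higher in NK. A further 10 genes are given next. Ccl2 had its lowest ratio in B cell-like cluster 10 (0.252) and its highest in olfactory neuron-like cluster 19 (4.02). Ccl5 ran from 0.435 in NK to 4.08 in cluster 11, and Ccl7 from 0.269 in cluster 14 to 4.54 in cluster 15. Ccl11 ran from 0.609 in cluster 5 to 2.02 in cluster 20. Cxcl1 ran from 0.117 in cluster 11 to 1.55 in cluster 4, and Cxcl9 from 0.276 in cluster 11 to 41.8 in cluster 14. Cxcl10 ran from 0.0283 in cluster 21, where 80 of 81 het UMIs lay in 1 cell, to 3.88 in cluster 14. Cxcl13 ran from 0.659 in cluster 0 to 2.38 in cluster 5. Pf4 ran from 0.0981 in cluster 10 to 23.9 in cluster 21, where 106 of 187 KO UMIs lay in 1 cell. Ccrl2 ran from 0.232 in cluster 13 to 2.36 in ILC2s.

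For the 9 pairs of gene and class that follow, female-label and male-label cells lay on opposite sides of 1 by 1.5-fold, and the difference was not tested. The ratio was higher in female-label cells for Cxcl1 in cluster 20 (1.63 and 0.648 in male-label cells), Ccl5 in cluster 11 (8.90 and 0.530), Pf4 in cluster 12 (11.8 and 0.0315) and Cxcr6 in NK (2.27 and 0.533). It was higher in male-label cells for Ccl4 in cluster 18 (8.92 and 0.125 in female-label cells), Ccl5 in cluster 14 (1.90 and 0.454), Ccl17 in cluster 11 (13.4 and 0.0959), Ccl17 in cluster 14 (3.69 and 0.173) and Ccl24 in cluster 11 (1.92 and 0.377). These 9 are not all such pairs. In cluster 11, male-label and female-label ratios were also 2.57 and 0.611 for Ccl8, and 1.86 and 0.119 for Cxcl9.

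Ackr1 was higher in the barcodes that the authors did not annotate than in the annotated cells of the same library. It was at 7.47 CPM against 2.56 CPM in the het library and at 6.90 CPM against 3.21 CPM in the KO library.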

How the results depend on the processing

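With female-label cells alone, 4 members were lower in cluster 0, where the median log2 ratio was 0.017; with a 2-fold limit 3 members were lower in cluster 0 and 7 in cluster 11, and over all 303 pairs 64 were lower and 26 higher in the KO library. With at least 20 UMIs, 140 of 435 pairs were lower (32.2%) and 87 higher (20%). Among the other alternatives the pairs lower in the KO library numbered 94 with the UMIs of the 10x matrices or with equal weight per cell, 92 centred on the median of all genes, and 87 without the top cell of each library. These totals hide changes in single results. Of 147 results, 147 stayed the same with the 10x matrices and 146 after centring. With equal weight per cell 106 of 147 stayed the same, and without the top cells 107. Only 66 of 145 did so in female-label cells and 53 of 142 in male-label cells. Ratios that crossed 1 in female-label cells were those of Cxcl9 in cluster 7 (0.939), Ccl2 in cluster 12 (1.12), Ccl6 in cluster 12 (1.14), Ccl7 in cluster 0 (1.22), Ccl11 (1.05) and Cx3cr1 (1.01) in cluster 5, and Pf4 in cluster 12 (11.8). In male-label cells they were those of Cxcl9 (1.86), Ccl5 (0.530), Ccl7 (1.32), Ccl17 (13.4), Ccl24 (1.92), Ccr9 (0.967) and Xcr1 (1.00) in cluster 11, Cxcl14 in cluster 3 (1.12), Ccl3 (1.01) and Ccl4 (8.92) in cluster 18, Ccl5 in NK (1.02), and Ccr7 in cluster 5 (0.190). Without the cells of highest Scrublet score, Cxcl14 in cluster 3 came to 4.10, Ccl5 in cluster 11 to 0.485, Ccl7 in cluster 8 to 0.402, and Ccr7 to 0.977 in cluster 3 and 0.515 in cluster 5. Without the top cells Cxcl1 in ILC2s came to 4.06, Ccl7 in cluster 8 to 0.350, Ccr7 in cluster 5 to 0.710 and Cx3cr1 in cluster 5 to 1.06, and Ccl9 in cluster 12 to 0.711 with equal weight per cell. The cause was not tested for any of these. No paired analysis was possible because each genotype has 1 library and the labels share only replicate number 1. With 1 library per genotype, depth limits only the counting error, and variation between mice or libraries is not measured.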

Other observations

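Barcodes outside the authors' annotation, 4986 in the het and 5452 in the KO library, were summed for the 44 genes as well. Ccl5 was at 76.2 CPM in the het and 9.94 CPM in the KO library there. Ccl12 was at 101 and 67.3 CPM, and Ccl2 at 178 and 159 CPM. Pf4 was at 419 and 452 CPM, and Cx3cr1 at 47.9 and 51.4 CPM. Ccrl2 was at 20.6 and 11.8 CPM and Cxcl10 at 41.1 and 26.4 CPM.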
